A study of Mus musculus with 12 samples.

Results

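The interleukin-6 family of cytokines signals through receptors that share the subunit gp130. A cytokine first binds its own receptor, gp130 joins, the attached JAK kinases phosphorylate STAT3, and STAT3 dimers enter the nucleus and switch on target genes. One of those targets, Socs3, encodes an inhibitor that binds gp130 and JAK and damps the signal, which makes it a feedback gene. In the colon this pathway is known for epithelial repair, acute-phase output and inflammation.

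The 10 genes described here were the ligands Il6, Il11, Osm and Lif, the receptor subunits Osmr, Il6ra, Il6st (gp130) and Il11ra1, the transcription factor Stat3 and its feedback inhibitor Socs3. They were chosen by name, and their probes were found through the accessions the array files carry. Of the 10 genes, 9 had at least 1 probe, 13 probes in all, and all 9 passed the filter on dim probes, out of 23239 genes tested. Lif was matched to no probe and has no value here.

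RNA came from whole colon of male C57BL/6J mice and was hybridised to 12 one-colour Agilent arrays, 2 in each of 6 groups. The groups were ATF6aKO mice given dextran sulfate sodium (DSS) or left untreated (UT), ATF6bKO mice given DSS or left untreated, and WT mice titled DSS or titled UT. DSS injures the colonic epithelium and was given at 3% in the drinking water for 3 days. ATF6aKO and ATF6bKO mice lack ATF6a and ATF6b, sensors of protein misfolding in the endoplasmic reticulum; the labels do not give the design of either allele or the age of the mice. They also do not state whether both arrays in a group are different mice, so p-values may measure technical spread only.

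The labels of the 4 WT arrays conflict. By title, 2 arrays are DSS and 2 are UT, but by treatment field each is the reverse. These groups are called titled DSS and titled UT below, and their difference is not taken as an effect of DSS. The labels of the 8 knockout arrays do not conflict. By the file headers, the arrays of each genotype share a scan date that no other genotype has. Such a set is called a slide below, though slide numbers were not read. Genotype and slide thus cannot be told apart, whereas every comparison of DSS with UT lay within a slide. All 4 WT arrays also had another version of the array grid than the 8 knockout arrays. Between the versions, 5471 probes had differing accessions. Between 26951 and 31411 of 41174 probes were well above background on an array, and the signal at the 75th percentile ranged from 245.6 to 1187. The feature extraction program marked both titled UT arrays of WT, and no other array, for evaluation of their extraction quality. As a check of the labels, ATF6aKO arrays had less Atf6 than WT arrays (log2 difference -3.92, limma adjusted p = 4.08e-05), and ATF6bKO arrays had less Atf6b (-6.09, adjusted p = 0.00187), with the Atf6b probe above background on 1 of 4 ATF6bKO arrays, so that the size of that difference rests on dim signals. The colon epithelium markers measured, 9 of 10, were above background on both arrays of every group.

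A level is the log2 signal of a gene's probe minus the log2 of the array's 75th percentile, so a level of 0 is the signal at that percentile. Levels are comparable between arrays for 1 probe, not between probes. Differences are log2 differences of levels with their standard error (SE), tested with limma and adjusted over all 23239 genes. Genes are said to rise or fall, or to be higher or lower, only where the adjusted p was under 0.05. In whole tissue, a change in the number of cells of a type and a change in RNA per cell cannot be told apart.

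Across both knockouts, 7 of the 9 genes measured rose with DSS and none fell. Il6 and Il11, the ligands, had the largest differences, 3.75 (SE 0.49) and 3.16 (SE 0.19), followed by Socs3 at 2.64 (SE 0.16) and Osmr at 1.77 (SE 0.24). This order depends on the treatment of background: with normexp the differences were 2.53 for Socs3, 2.10 for Il11, 1.58 for Osmr and 1.38 for Il6, whose probe was above background on 2 of 4 UT arrays of the knockouts. The signal transducers Il6st and Stat3 rose by less, 0.97 (SE 0.11) and 0.80 (SE 0.10). Osm and Il6ra did not pass the test. Of all genes tested, 29.1% passed in either direction in this comparison and 13.3% rose. For 7 of the 9, every DSS array of the knockouts was above every UT array, which held for 11.5% of all genes, and the median difference was 0.97 over the 9 genes and -0.01 over all genes. With normexp background correction the count was 8 of 9, and leaving out any 1 of the 8 arrays gave 6 or 7.

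**Figure D1:**
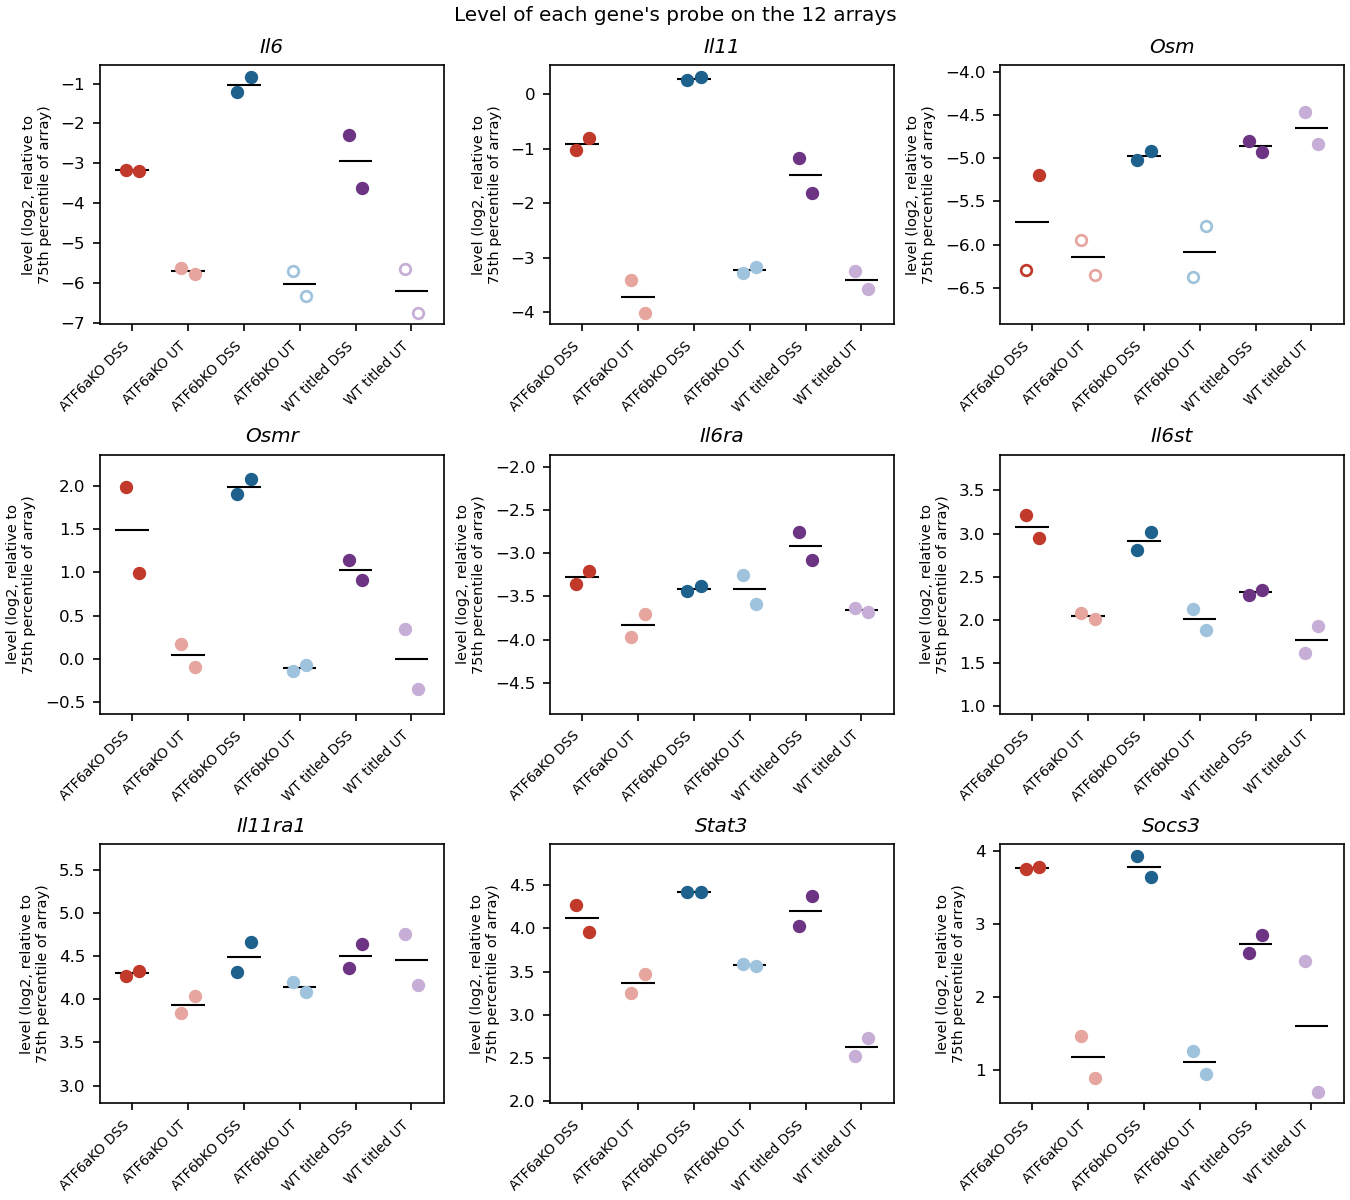
Level of each gene's probe (log2, relative to the array's 75th percentile, on a vertical axis of its own) on each of the 12 arrays, in 6 groups. Each point is 1 array, the line is the mean of the 2 arrays, and an open point is an array where the probe was not well above background; for Il6, Il11, Osmr, Il6st, Stat3 and Socs3, both DSS arrays of each knockout lie above its UT arrays.

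Il6 encodes interleukin-6, the family's founding cytokine, made by myeloid cells and stromal cells in inflamed tissue. Its level was -3.16 and -3.19 on the ATF6aKO DSS arrays, against -5.62 and -5.76 on the ATF6aKO UT arrays. On the ATF6bKO arrays it was -1.22 and -0.84 with DSS, against -5.71 and -6.33 in UT. The WT arrays had -2.28 and -3.61 where titled DSS, against -5.65 and -6.74 where titled UT. The 2 arrays of ATF6bKO given DSS were the highest of the 12, and DSS and UT arrays overlapped in no genotype; DSS or titled DSS arrays without overlap and higher were seen for 36.2% of all genes in ATF6aKO, 26.5% in ATF6bKO and 30.2% in WT. Il6 was not well above background on the UT arrays of ATF6bKO or on the titled UT arrays of WT, where only the brighter side was measured.

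The Il6 difference was 2.52 in ATF6aKO (SE 0.47, limma adjusted p = 0.0204). In ATF6bKO it was 4.99 (adjusted p = 0.00131), and the processed signal differed by at least 24.1-fold. Between the WT groups it was 3.25 by titles (adjusted p = 0.00287, at least 9.16-fold on the processed signal). The size depends on how background is treated: with normexp correction, which pulls dim signals together, the differences were 0.90 in ATF6aKO, 1.85 in ATF6bKO and 1.18 in WT, all past the threshold. The folds given are therefore bounds for the processed signal only. The ATF6aKO call was lost without any 1 of its own 4 arrays (adjusted p 0.0806 to 0.124). The Il6 probe is printed on each array 10 times. The SD between its spots within an array was 0.03 to 0.15 on the 6 DSS or titled DSS arrays, and 0.21 to 0.80 on the 6 UT or titled UT arrays, so the dim arrays also had the widest spot spread.

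**Figure D2:**
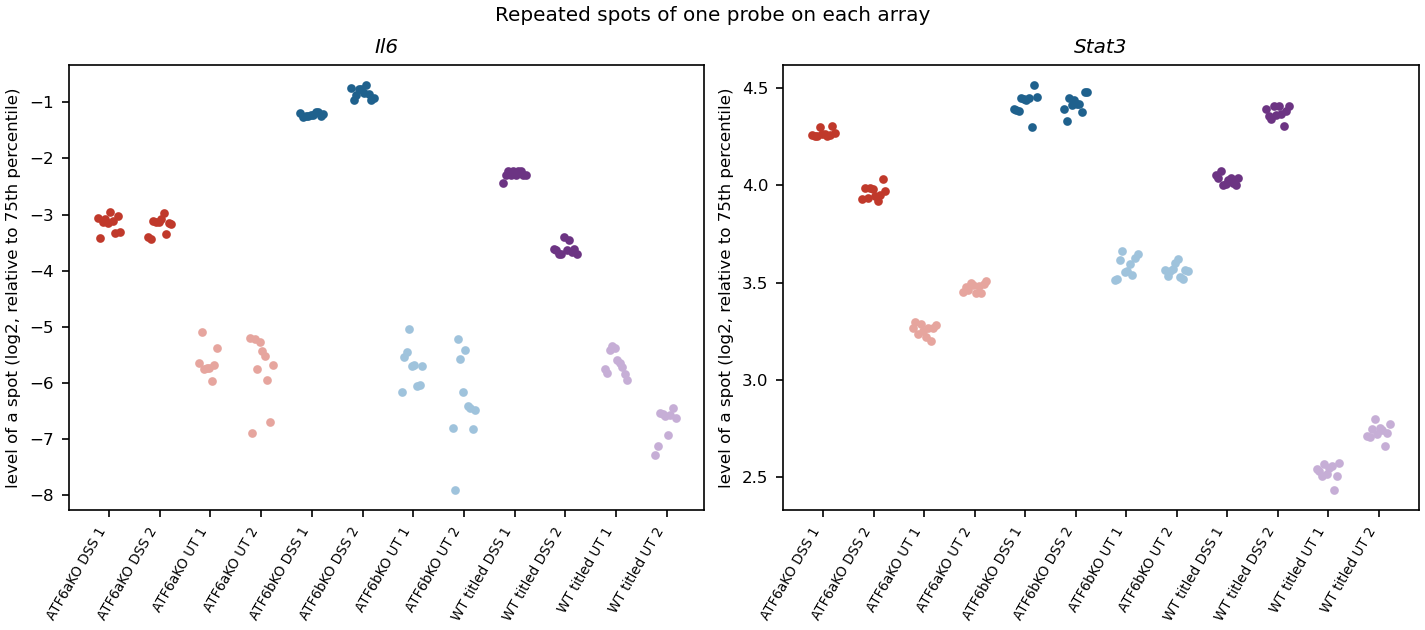
Level of each of the repeated spots of the Il6 probe and of the Stat3 probe on every array (log2, relative to the array's 75th percentile). Points are single spots of 1 array; the spots of Il6 spread widely only where its signal was near background, while for Stat3 the SD between spots was at most 0.06 on every array.

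Il11 encodes interleukin-11, a gp130 ligand made mainly by fibroblasts and other stromal cells. On the ATF6aKO arrays its level was -1.01 and -0.80 with DSS, against -3.41 and -4.0 in UT. With DSS the ATF6bKO arrays had 0.26 and 0.32, against -3.29 and -3.16 in UT. In WT the level was -1.18 and -1.80 on the titled DSS arrays, against -3.24 and -3.57 on the titled UT arrays. The 6 DSS or titled DSS arrays were all above the 6 others, with ATF6bKO highest and WT lowest among them, and the probe was above background on all 12. The difference was 2.80 in ATF6aKO (SE 0.27, adjusted p = 0.00361), 3.51 in ATF6bKO (SE 0.27, adjusted p = 0.000713) and 1.92 between the WT groups by titles (SE 0.27, adjusted p = 0.00267), by limma. It passed under every alternative run for both knockouts, with adjusted p at most 0.0472 in ATF6aKO and 0.022 in ATF6bKO; normexp lowered it to 1.83 and 2.37.

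Osm encodes oncostatin M, a ligand from neutrophils, macrophages and T cells that acts on stromal cells and epithelium through Osmr. Its probe was dim. The level was -6.29 and -5.19 on the ATF6aKO DSS arrays, against -5.94 and -6.35 on the UT arrays. In ATF6bKO it was -5.02 and -4.92 with DSS, against -6.38 and -5.79 in UT. In WT the level was -4.80 and -4.93 where titled DSS, against -4.47 and -4.84 where titled UT. All 4 WT arrays were above every ATF6aKO array, and the second ATF6bKO DSS array lay within the WT range. In UT the probe was above background on no knockout array. The difference of 0.76 across both knockouts (SE 0.29, limma adjusted p = 0.0909) missed the threshold; it passed with normexp (0.38, adjusted p = 0.0231) and without the first ATF6aKO DSS array (1.05, adjusted p = 0.0189). A second Osm probe was not above background on any array.

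Osmr encodes the oncostatin M receptor subunit, which pairs with gp130. Its level was 1.99 and 0.99 on the ATF6aKO DSS arrays, against 0.18 and -0.10 on the UT arrays. ATF6bKO had 1.91 and 2.08 with DSS, against -0.14 and -0.07 in UT. The WT levels were 1.15 and 0.91 where titled DSS, against 0.34 and -0.35 where titled UT. The groups did not overlap in any genotype, and the UT levels of the 3 genotypes overlapped one another. The difference was 1.45 in ATF6aKO (SE 0.34, limma adjusted p = 0.0403), 2.10 in ATF6bKO (SE 0.34, adjusted p = 0.00584) and 1.03 between the WT groups by titles (SE 0.34, adjusted p = 0.0443). The WT call was lost in 12 of the 21 alternatives (adjusted p up to 0.177), and the ATF6aKO call in 11 of the 21; without its first DSS array the value was 0.95 (adjusted p = 0.238). A second probe gave 1.76 in ATF6aKO (adjusted p = 0.0102) and 2.0 in ATF6bKO (adjusted p = 0.00253), and 0.53 in WT (adjusted p = 0.138).

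Il6st encodes gp130 itself, the subunit shared by the family. On DSS arrays of ATF6aKO the level was 3.21 and 2.95, against 2.08 and 2.01 in UT. ATF6bKO had 2.80 and 3.02 with DSS, against 2.13 and 1.89 in UT. In WT it was 2.29 and 2.35 where titled DSS, against 1.61 and 1.93 where titled UT. The 4 knockout DSS arrays were above all others. Il6st rose by 1.03 in ATF6aKO (SE 0.19, limma adjusted p = 0.0183) and 0.91 in ATF6bKO (SE 0.19, adjusted p = 0.0153), while the WT difference of 0.55 by titles missed the threshold (adjusted p = 0.0523).

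Il6ra encodes the ligand-binding interleukin-6 receptor, which immune cells and hepatocytes carry on their surface and which is also shed in soluble form. Its level ranged narrowly, with -3.36 and -3.20 on the ATF6aKO DSS arrays, against -3.96 and -3.71 in UT. The ATF6bKO arrays had -3.43 and -3.38 with DSS, against -3.25 and -3.59 in UT, an overlap. In WT it was -2.76 and -3.08 where titled DSS, against -3.64 and -3.68 where titled UT. By limma, Il6ra did not pass in ATF6aKO (0.56, SE 0.19, adjusted p = 0.119) or ATF6bKO (0.01, SE 0.19, adjusted p = 0.983), and it was higher in the titled DSS arrays of WT (0.74, adjusted p = 0.0202). Its second probe disagreed with the first. That probe differed by 0.74 in ATF6aKO (adjusted p = 0.0657), fell in ATF6bKO by 0.73 on the log2 scale (adjusted p = 0.0484) and differed by 0.03 in WT (adjusted p = 0.928), so the direction for Il6ra in ATF6bKO is not settled.

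Il11ra1 encodes the interleukin-11 receptor subunit. The level was 4.27 and 4.32 on the ATF6aKO DSS arrays, against 3.84 and 4.04 in UT. In ATF6bKO it was 4.31 and 4.66 with DSS, against 4.2 and 4.08 in UT. WT had 4.36 and 4.64 where titled DSS, against 4.75 and 4.16 where titled UT, which overlap. Il11ra1 passed only across both knockouts (0.35, SE 0.11, limma adjusted p = 0.0448) and lost the call without any 1 of 7 of the 8 arrays (adjusted p 0.0578 to 0.116). The second probe missed the threshold (0.36, adjusted p = 0.0641). Mice carry a close copy, Il11ra2, for which no probe was matched, and whether these probes also bind its transcript was not tested.

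Stat3 encodes the transcription factor of the pathway and is one of its own targets. The probe is printed 10 times, with an SD between spots of 0.02 to 0.06 within an array, smaller than the gap between arrays of most groups. On the ATF6aKO arrays the level was 4.27 and 3.96 with DSS, against 3.26 and 3.48 in UT. Both ATF6bKO DSS arrays had 4.42, against 3.58 and 3.56 in UT. The WT levels were 4.03 and 4.37 where titled DSS, against 2.53 and 2.73 where titled UT. The titled UT arrays of WT were the lowest of the 12, and DSS and UT did not overlap in any genotype. The difference was 0.75 in ATF6aKO (SE 0.19), which missed the threshold at a limma adjusted p of 0.0518 and passed it in 6 of the 21 alternatives, 0.85 in ATF6bKO (SE 0.19, adjusted p = 0.021) and 1.57 between the WT groups by titles (SE 0.19, adjusted p = 0.00195). The ATF6bKO call was lost without any 1 of its own 4 arrays (adjusted p 0.0793 to 0.107), with the value between 0.84 and 0.86.

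Socs3 encodes the feedback inhibitor. Its level was 3.75 and 3.79 on the ATF6aKO DSS arrays, against 1.47 and 0.89 in UT. ATF6bKO had 3.94 and 3.64 with DSS, against 1.26 and 0.94 in UT. In WT it was 2.60 and 2.84 where titled DSS, against 2.5 and 0.70 where titled UT. The 4 knockout DSS arrays were the highest of the 12, and the titled UT arrays of WT lay far apart, the first of them close to the titled DSS arrays. Socs3 rose by 2.59 in ATF6aKO (SE 0.49, limma adjusted p = 0.0208) and 2.69 in ATF6bKO (SE 0.49, adjusted p = 0.00924), and the WT difference of 1.12 by titles missed the threshold (adjusted p = 0.109). Without the first titled UT array the WT difference was 2.02 (adjusted p = 0.00586), and without the second it was 0.22 (adjusted p = 0.546).

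The sequences before the start of Il6, Il11 and Socs3 are shown because these were the 3 genes with the largest differences on the processed signal; with normexp Il6 (1.38) came after Osmr (1.58). Each line gives the 250 bases before the start in the RefSeq promoter table (GRCm38.p6), 5′ to 3′ on the gene's strand, with matches to a STAT-type motif (TTCNNNGAA), an AP-1 motif (TGANTCA) or an NF-kB motif, searched on both strands, in capitals.
Il6, chr5:30012864-30013113, plus strand: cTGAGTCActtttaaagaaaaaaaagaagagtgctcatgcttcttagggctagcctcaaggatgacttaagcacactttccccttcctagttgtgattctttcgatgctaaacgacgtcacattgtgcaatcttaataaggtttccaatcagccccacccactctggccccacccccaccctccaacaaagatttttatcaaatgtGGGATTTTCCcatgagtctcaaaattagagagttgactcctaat
Il11, chr7:4778142-4778391, minus strand: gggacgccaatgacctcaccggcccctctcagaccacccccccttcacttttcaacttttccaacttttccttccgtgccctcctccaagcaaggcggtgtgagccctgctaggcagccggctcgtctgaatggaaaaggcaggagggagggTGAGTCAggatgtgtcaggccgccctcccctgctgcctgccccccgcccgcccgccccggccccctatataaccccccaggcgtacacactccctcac
Socs3, chr11:117969367-117969616, minus strand: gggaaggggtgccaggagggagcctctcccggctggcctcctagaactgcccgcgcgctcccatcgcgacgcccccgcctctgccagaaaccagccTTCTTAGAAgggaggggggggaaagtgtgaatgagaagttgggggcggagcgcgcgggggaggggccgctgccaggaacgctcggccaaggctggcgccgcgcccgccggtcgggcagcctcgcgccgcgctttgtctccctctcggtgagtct

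The capitals mark TGAGTCA and GGGATTTTCC before Il6, TGAGTCA before Il11 and TTCTTAGAA before Socs3, the only STAT-type match. The table holds windows for 9 of the 10 genes, 11 windows in all since Il11 and Il11ra1 have 2 each; the second Il11 window, printed here, starts downstream of the first, which held no match. The STAT-type motif was in 1 of the 11 windows of 300 bases, with 50 bases after the start counted in, and in 8.3% of 32851 windows of all genes. The AP-1 motif was in 4 of the 11, before Il6, Il11 and Lif and after the start of Osmr, and in 7.81% of all windows. The NF-kB motif was in 1 of the 11 and in 1.63% of all. The ER stress element, which ATF6 proteins are known to bind, was in none of the 11 and in 0.119% of all windows. A match describes the letters only, and windows without one hold no information on binding elsewhere.

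Within ATF6aKO, 5 of the 9 genes rose (Il6, Il11, Osmr, Il6st and Socs3) and none fell, where 6.33% of all genes passed and 2.88% rose. The median difference was 1.03 over the 9 genes and 0.04 over all genes. Leaving out 1 of the 4 ATF6aKO arrays lowered the count to 1 without the first DSS array or either UT array and to 2 without the second DSS array; Il11 passed in each case. Within ATF6bKO, 6 of the 9 rose, the same 5 and Stat3, where 12.9% of all genes passed and 5.7% rose, with medians of 1.11 over the 9 and -0.06 over all. Without 1 of its 4 arrays, 4 or 5 passed. Between the WT groups by titles, 5 of the 9 were higher in titled DSS (Il6, Il11, Osmr, Il6ra and Stat3), where 31.8% of all genes passed and 14.8% were higher. Fitting the 4 WT arrays alone left 2 of the 9 and lowered the count over all genes to 636, against 7380 with all 12 arrays.

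**Figure D3:**
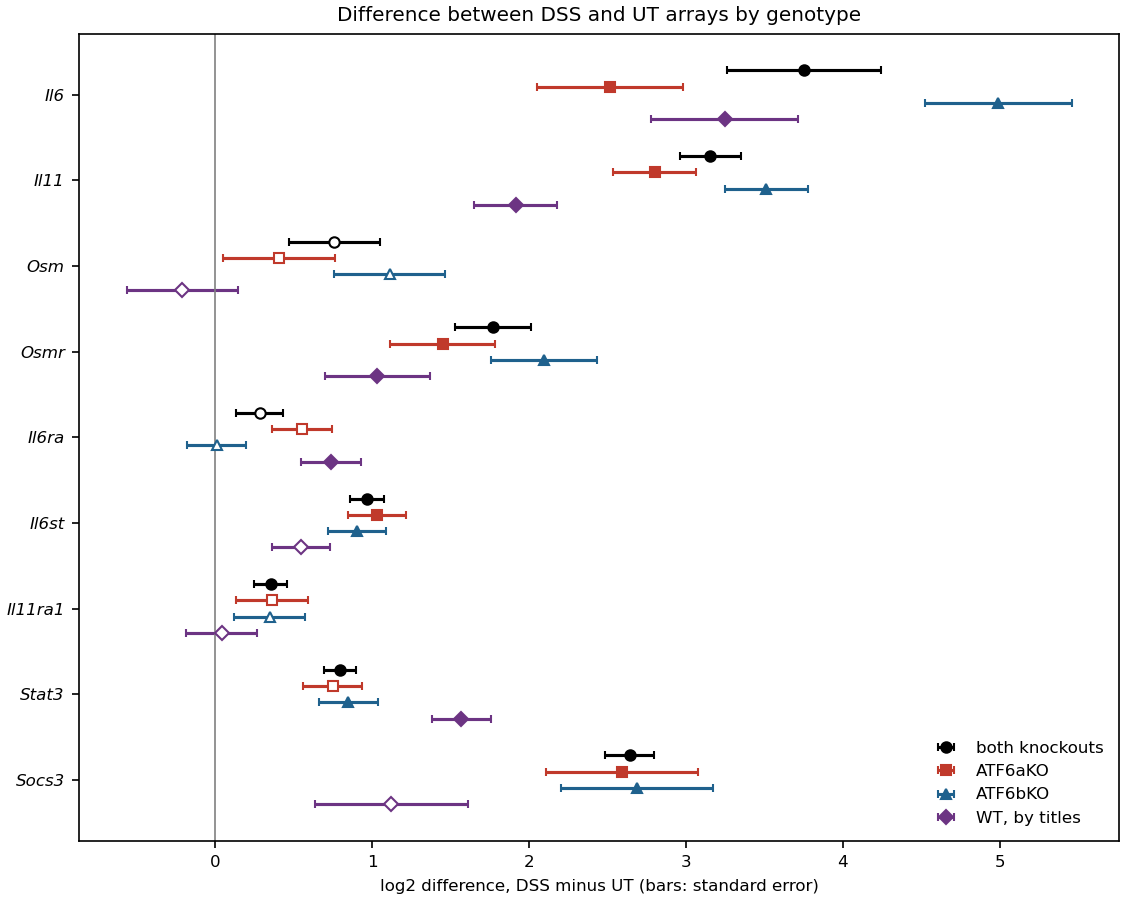
Log2 difference of each gene, DSS minus UT, over both knockouts, within ATF6aKO, within ATF6bKO and between the WT groups by titles. Points are limma estimates, bars are 1 standard error, and filled points passed an adjusted p of 0.05; every estimate for Il6, Il11, Osmr, Il6st, Stat3 and Socs3 is above 0, while Osm, Il6ra and Il11ra1 lie near 0 in at least 1 comparison.

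The design also allows the question of whether the response to DSS differs between genotypes, which the difference between responses tests directly. Between ATF6aKO and ATF6bKO it passed for none of the 9 genes, where 0% of the 23239 genes passed by limma. At an unadjusted p under 0.05, 1 of the 9 and 1854 of all genes (7.98%) differed. The 1 was Il6, with a difference of -2.47 (SE 0.66, unadjusted p = 0.00484, adjusted p = 0.375). The other 8 differences had an unadjusted p of 0.0737 to 0.967, and for Socs3 (-0.09, SE 0.69) and Stat3 (-0.10, SE 0.27) the estimates were smaller than their standard errors.

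Against WT by titles, 0 of the 9 responses differed in ATF6aKO, where 7.66% of all genes passed, and 2 of the 9 had an unadjusted p under 0.05 by limma, as had 30.2% of all genes. In ATF6bKO 1 of the 9 differed, where 14.6% of all genes passed and 6.29% had a larger response; 6 of the 9 had an unadjusted p under 0.05, as had 34.8% of all genes. That gene was Il11, with a response larger by 1.60 (SE 0.37, adjusted p = 0.0289). This call was lost without any 1 of the 4 ATF6bKO arrays (adjusted p 0.0642 to 0.0847). Stat3 did not pass, with a difference from WT of -0.82 in ATF6aKO (SE 0.27, adjusted p = 0.0855) and -0.72 in ATF6bKO (SE 0.27, adjusted p = 0.0952). These comparisons share the WT arrays. If the treatment fields and not the titles hold for the scanner files, the WT differences change sign. Then 7 of the 9 responses differ in ATF6aKO, as do 6488 of all 23239 genes, and 6 of the 9 in ATF6bKO, as do 6811 of all genes. Read with the deposited value table instead, the treatment fields assign the same WT arrays to DSS as the titles do with the scanner files.

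Averaged over treatments, 1 of the 9 genes differed between ATF6aKO and WT, where 35.3% of all genes passed and 20.6% were lower. Osm was lower in ATF6aKO (-1.19, SE 0.28, limma adjusted p = 0.0128), with the probe above background on 1 of 4 ATF6aKO arrays and on 4 of 4 WT arrays, and no overlap between the groups. Of all genes tested, 19.1% were lower in ATF6aKO with no overlap. With normexp the Osm difference was 0.10 (adjusted p = 0.663), the opposite sign. Between ATF6bKO and WT none of the 9 passed, where 29.3% of all genes passed by limma; at an unadjusted p under 0.05 it was 4 of the 9 and 43.8% of all genes. Genotype, slide and the version of the array grid cannot be told apart in these comparisons.

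Other genes of the pathway were read from 5 lists. Of the gp130 cytokines not described above, 6 of 8 were measured. Across both knockouts 1 fell and none rose with DSS by limma, where 29.1% of all genes passed. At an unadjusted p under 0.05 it was 3 of 6 and 42.3% of all genes. Ctf1, cardiotrophin-1, fell by 0.87 on the log2 scale (adjusted p = 0.00254). Of 4 further gp130-type receptors measured, 3 rose, where 13.3% of all genes rose. They were Il27ra (1.1, SE 0.30), Cntfr (0.54, SE 0.15) and Il31ra (0.54, SE 0.17). Il27ra encodes the interleukin-27 receptor and Cntfr the ciliary neurotrophic factor receptor. The adjusted p of all 3 was between 0.034 and 0.0494, and the count ranged from 0 to 2 without 1 of the 8 arrays. It was 0 with quantile normalization and without a filter, 1 with the strict filter, and 3 with normexp and in the value table.

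Among the 11 JAK kinases, STATs and receptor sheddases reported, 3 rose and none fell across both knockouts, where 29.1% of all genes passed. Stat4, which signals for interleukin-12 in T and NK cells, rose by 1.79 (SE 0.26, limma adjusted p = 0.00435). Jak3, the kinase of common gamma chain receptors in lymphocytes, rose by 0.41 (adjusted p = 0.0235), and Adam17, a protease that sheds Il6ra, by 0.28 (adjusted p = 0.033). Jak1, Jak2 and Tyk2, the kinases that gp130 uses, did not pass (0.25, 0.13 and -0.32). Without 1 array of the 8 the count was 1 or 2.

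Of 17 negative regulators of JAK-STAT signalling, 2 rose and 2 fell, where 29.1% of all genes passed, and the median difference was -0.05 against -0.01 over all genes. Socs1, an inhibitor of JAK kinases, rose by 1.58 (SE 0.34, limma adjusted p = 0.0147), and Ptpn1, a tyrosine phosphatase, by 0.77 (SE 0.12, adjusted p = 0.00465). Pias4 and Pias3, inhibitors of STAT proteins, fell by 0.66 and 0.44 on the log2 scale (adjusted p 0.0208 and 0.0328); without 1 of the 8 arrays the number that fell was 0 to 2. Socs2, Socs4, Socs5, Socs6, Socs7 and Cish, of the family of Socs3, did not pass.

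Of 28 textbook STAT3 target genes, 14 rose and 5 fell across both knockouts, where 29.1% of all genes passed, with a median difference of 0.83 against -0.01 over all genes. The 4 largest rises were Lrg1, a secreted acute-phase glycoprotein, at 2.72 (SE 0.18, limma adjusted p = 0.000801), Timp1, an inhibitor of matrix metalloproteinases, at 2.42 (SE 0.23, adjusted p = 0.00148), Lcn2, an iron-scavenging protein, at 2.18 (SE 0.25, adjusted p = 0.00222), and Batf, a transcription factor of lymphocytes and myeloid cells, at 1.44 (SE 0.26, adjusted p = 0.00798). The targets that fell included Birc5, the inhibitor of apoptosis expressed in dividing cells, by 1.85 on the log2 scale (adjusted p = 0.00312), and Saa3, an acute-phase protein, by 1.28 (adjusted p = 0.00332). Vegfa, an angiogenic factor, fell by 1.14 on that scale (adjusted p = 0.00196), and Myc, which drives growth, by 0.68 (adjusted p = 0.0173). The targets thus moved both ways. Reg3b and Reg3g, antimicrobial lectins of the epithelium, had differences of 2.77 (SE 0.92, adjusted p = 0.0613) and 3.43 (SE 1.07, adjusted p = 0.0506) that did not pass. Most targets are also induced by other signals, so the list is not specific to STAT3.

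**Figure D4:**
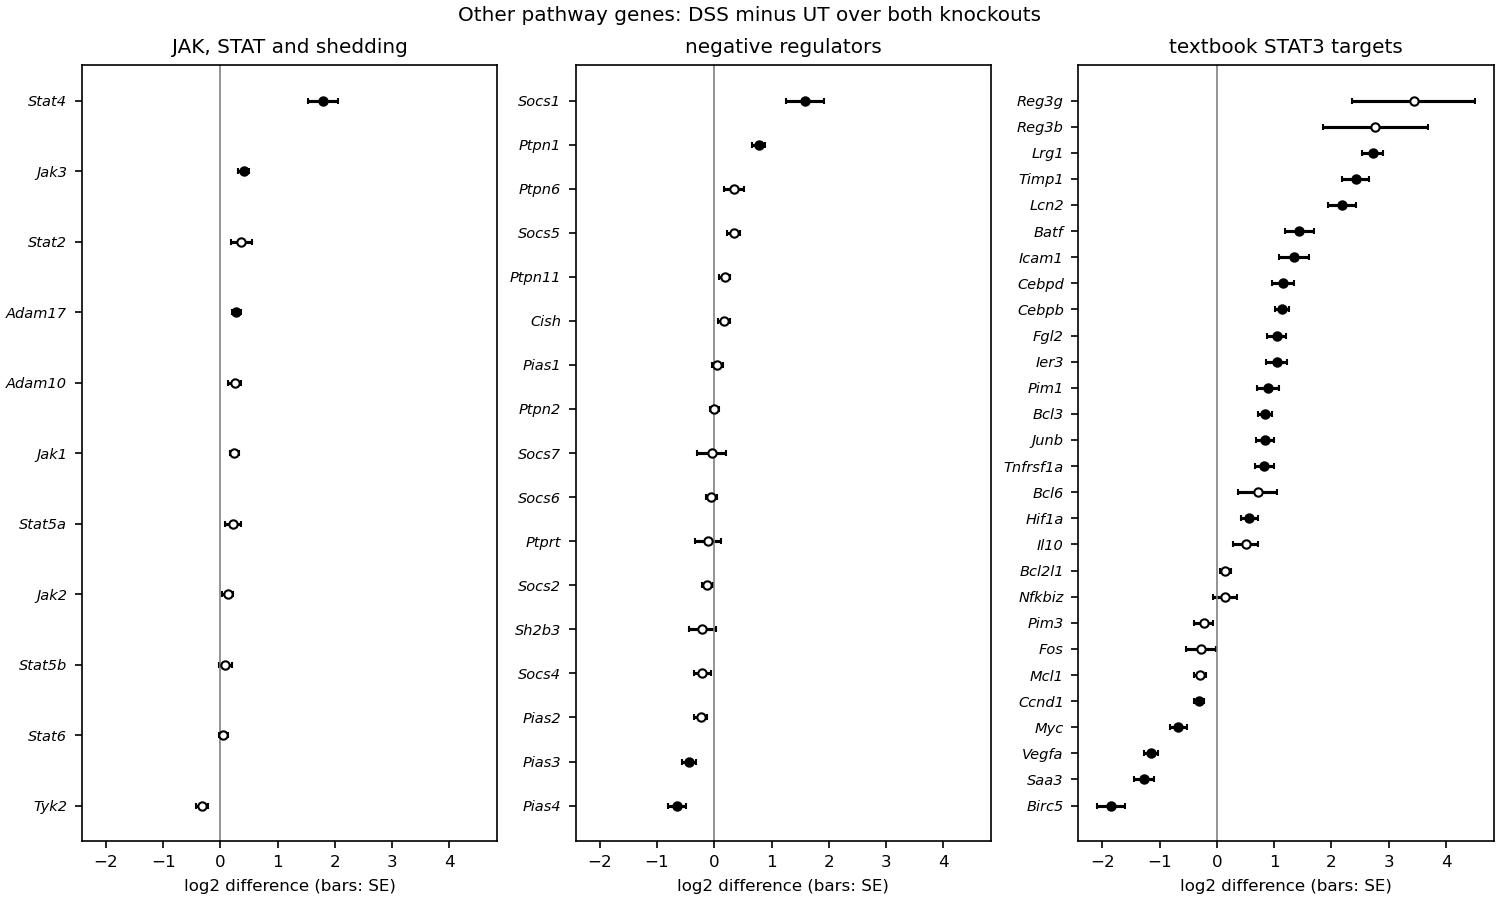
Log2 difference, DSS minus UT over both knockouts, for 11 JAK, STAT and shedding genes, 17 negative regulators and 28 textbook STAT3 targets, each list sorted by size. Points are limma estimates, bars are 1 standard error and filled points passed an adjusted p of 0.05; filled points lie on both sides of 0 among the negative regulators and the targets, and on the positive side among the JAK, STAT and shedding genes.

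The genotypes were on separate slides. Averaged over treatments, 7 of the 28 STAT3 targets were higher and 3 lower in ATF6aKO than in WT, where 35.3% of all genes passed. In ATF6bKO 5 were higher and 4 lower, where 29.3% of all genes passed. Both shares of the list were near those of all genes. Reg3b was lower in ATF6aKO (-10.2, limma adjusted p = 5.92e-05) and in ATF6bKO (-10.4, adjusted p = 0.00105). Reg3g was lower in ATF6aKO (-5.85, adjusted p = 0.00217) and in ATF6bKO (-7.55, adjusted p = 0.00288). Both probes were above background on all 4 WT arrays; Reg3b was above it on 2 of 4 ATF6aKO arrays and 1 of 4 ATF6bKO arrays, and Reg3g on 3 of 4 and 1 of 4. The sizes of these differences thus rest in part on signals not well above background. These genotype differences were not run under the other scalings.

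Markers of other cell types moved with DSS in the same knockout arrays. Of 9 neutrophil markers tested all 9 rose, as did 9 of 10 of monocytes and macrophages, 8 of 8 of T and NK cells, 8 of 9 of fibroblasts and 5 of 6 of endothelium, while 2 of 9 colon epithelium markers rose. None of the 6 smooth muscle, 5 squamous epithelium and 3 adipocyte markers tested rose across both knockouts. Of all genes, 13.3% rose. These counts had 4 arrays a side, and those within 1 genotype had 2. Within ATF6aKO 4 of 9 neutrophil, 2 of 10 monocyte and macrophage and 0 of 8 T and NK cell markers rose. So did 1 of 9 fibroblast and 1 of 6 endothelium markers, where 2.88% of all genes rose. Within ATF6bKO it was 7 of 9, 7 of 10, 6 of 8, 1 of 9 and 1 of 6, in the same order. There 4 of 5 squamous epithelium markers and 5.7% of all genes rose. The mean level of 10 neutrophil markers was -2.88 and -3.42 on the ATF6aKO DSS arrays, against -4.92 and -5.10 in UT. In ATF6bKO it was -1.64 and -1.81 with DSS, against -5.62 and -4.94 in UT. The WT arrays had -4.44 and -5.38 where titled DSS, against -5.03 and -5.65 where titled UT. Between the WT groups 1 of 9 neutrophil markers, 0 of 10 of monocytes and macrophages and 1 of 8 of T and NK cells were higher in titled DSS, as were 2 of 9 of fibroblasts, with 1 lower, 2 of 6 of endothelium, 2 of 6 of smooth muscle and 1 of 9 of colon epithelium. None of the 5 squamous epithelium and 3 adipocyte markers passed there. Of all genes, 14.8% were higher in titled DSS. The part of these cells in the rise of Il6, Osmr, Socs3 and the others was not tested.

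Markers of squamous epithelium, which lines the anal margin, stood apart on the ATF6bKO DSS arrays. Their mean level was -2.57 and 2.15 there, against -5.00 and -4.77 in ATF6bKO UT, and lay between -5.22 and -4.54 on the other 8 arrays. Both ATF6bKO DSS arrays were thus above every other array, and leaving out 1 of them does not remove these markers. Their part in the differences below was not tested. Without the second ATF6bKO DSS array, where they were highest, the difference of Il6 in ATF6bKO was 4.80 (limma adjusted p = 0.0117), that of Il11 3.49 (adjusted p = 0.00921) and those of Osmr (2.01, adjusted p = 0.0422) and Socs3 (2.83, adjusted p = 0.045) also passed; the calls of Il6st (0.80, adjusted p = 0.112) and Stat3 (0.85, adjusted p = 0.107) were lost with 1 array fewer, against 0.91 and 0.85 with all arrays.

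**Figure D5:**
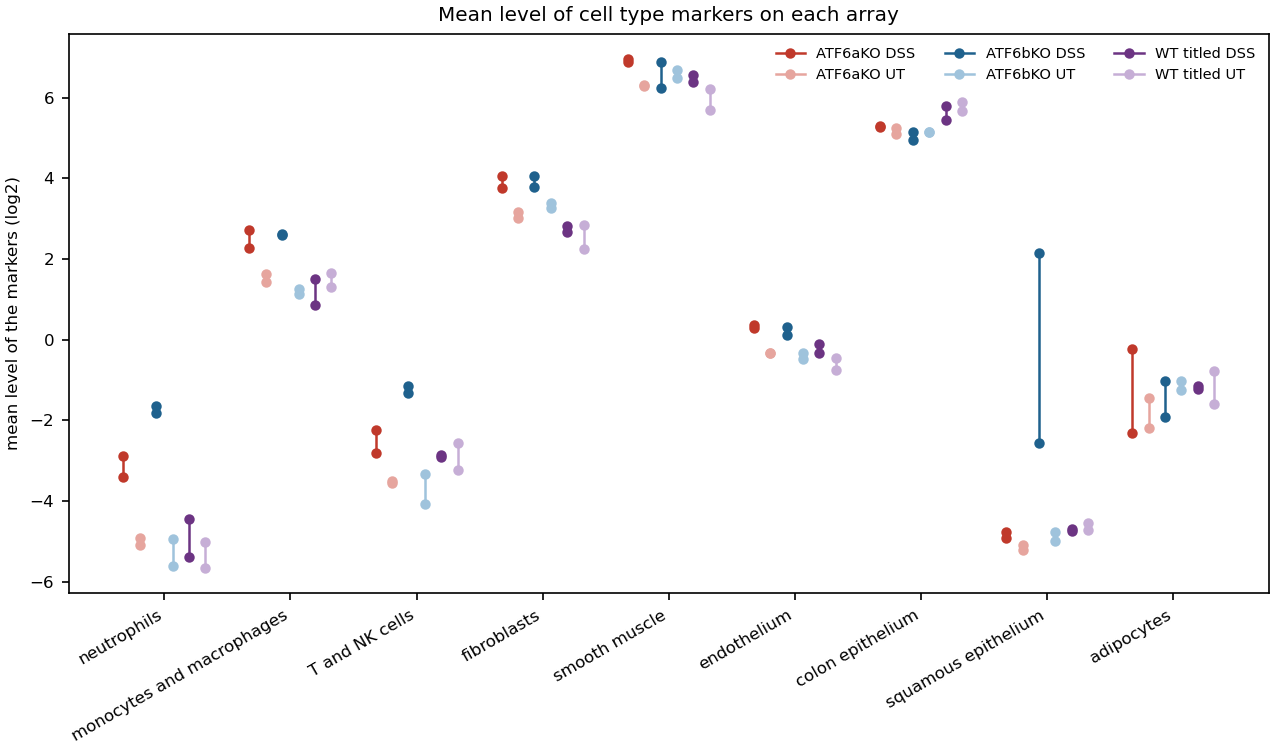
Mean level of the markers of 9 cell types (log2, relative to the array's 75th percentile) on each array, in 6 groups. The 2 points of a group are its arrays, joined by a line. In each knockout the neutrophil, monocyte, T and NK cell, fibroblast, endothelium and squamous markers lie above its UT arrays on both DSS arrays. The squamous markers lie far above all other arrays on the ATF6bKO DSS arrays alone.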

How the data were processed

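The authors hybridised total RNA from colon, labelled with Cy3, to Agilent arrays and quantified each array with Agilent Feature Extraction 10.7.1.1, per the submitters' processing notes and the file headers. The deposited scanner files give, per spot, a processed signal intensity with background subtracted and no scaling between arrays, and the raw median intensities of spot and background. The deposited value table holds log2 values that are centred on each probe (mean within 0.001 of 0 for all 41267 probes). Its column medians run from -0.47 to 0.24 with a scaling that no source used here gives. Values were missing for 6443 to 9028 probes in each of the 4 WT columns and for none in the knockout columns. In 8 of its 12 columns the values were those of another sample's array: each of the 4 WT columns matched an array of the opposite WT group, and the ATF6aKO columns had replicates exchanged. Thus the titles with the scanner files, and the treatment fields with the value table, assign the same WT arrays to DSS. The scanner files were taken as assigned.

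Control spots and spots marked as outliers (54 to 108 per array) were dropped; 43379 of 45018 spots were not controls, for 41174 probes. Each level is the log2 processed signal less the log2 of the 75th percentile on its array; spots of a probe were averaged. A probe counts as above background where most of its spots carry the program's mark, and 30428 probes above background on both arrays of at least 1 group were kept. A gene was represented by its probe with the highest mean level, and 23239 genes or transcripts were tested, 14595 of them with a symbol. Accessions were named through a RefSeq table (GRCm38.p6), which matched 25193 probes (61.2%). A fold is called "at least" where one group was below background on both arrays and takes the dimmest measured signal of each array as its floor. It is a bound for the processed signal only, and other background corrections can give less.

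The tests used lmFit and eBayes of limma 3.58.1 in R 4.3.3, with p-values adjusted by the Benjamini-Hochberg method, threshold 0.05. The comparison over both knockouts used 8 arrays with genotype as a term, those within a genotype and between responses used 6 group means over all 12 arrays, and those between genotypes used 8 arrays with treatment as a term. The fit was also run on simulated levels with known differences. Their noise was independent between arrays, so that run does not bear on slides or shared mice. Alternatives were normexp background correction (offset 50; on median signals, as the files hold no mean signal), quantile normalization, other filters, the mean of a gene's probes, the value table, the arrays compared alone, the replicate number as a block, the other reading of the WT labels and each array left out; fits without the WT arrays were added after seeing the data. The number of arrays limits the precision.

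The genes and lists were chosen with earlier results of these data known. The rule for named genes took all 10 genes, from each list at most 4 that rose and 4 that fell over both knockouts and at most 3 in each direction in a comparison of responses or genotypes, and the 5 genes most like Il6, Il11, Osm and Socs3 over the 12 arrays. One gene of the lists is not reported here.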

Additional observations from a re-analysis of the deposited data

Results flagged for a closer look

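The response of Il11 to DSS differed between ATF6bKO and WT by titles, in a test of the difference itself (1.60, SE 0.37, limma adjusted p = 0.0289). Both ATF6bKO DSS arrays were higher than both UT arrays, and both titled DSS arrays of WT were higher than both titled UT arrays. With all probes kept regardless of signal the adjusted p was 0.0568, with only the arrays compared 0.0592, and without 1 array it ran up to 0.0887, reached without the second titled DSS array (1.29). If the treatment fields of the WT arrays hold for the scanner files, the difference is 5.43 (adjusted p = 0.000359).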

How the results depend on the processing

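Across both knockouts the rise of Il6, Il11, Osmr, Il6st, Stat3 and Socs3 kept its direction and passed the threshold under every alternative run, except that the strict filter left Il6 (and Osm) untested; 6 to 8 of the 9 genes passed. In ATF6aKO, 3 of the 9 passed in a fit of its own arrays, and 1 to 6 with 1 array left out. Between the WT groups by titles, 3 passed with each gene's probes averaged, 2 with only the arrays compared, and 3 to 6 with 1 array left out. For ATF6aKO against WT responses, 1 passed with normexp, 1 with quantile normalization, 7 with the WT treatment fields, and 0 to 2 with 1 array left out. For ATF6bKO against WT responses, 2 passed with quantile normalization, 0 without a filter, 0 with only the arrays compared, 6 with the treatment fields, and 0 to 4 with 1 array left out. Between ATF6aKO and WT, 4 passed in the value table, 2 with all 12 arrays in the fit, and 1 to 2 with 1 array left out. Between ATF6bKO and WT, 4 passed with normexp, 5 in the value table, 5 with all 12 arrays, and 0 to 4 with 1 array left out. With normexp, in the value table and with all 12 arrays, the number of all genes passing between ATF6bKO and WT rose too. It also rose between ATF6aKO and WT in the value table. Those numbers are given below, and the changed counts are not particular to the 9 genes.

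Signs turned for Osm in ATF6aKO without its second DSS array (-0.144, range without 1 array to 0.957), for Il6ra in ATF6bKO with the mean of its probes (-0.36), without the second DSS array (-0.01) and without the second UT array (-0.161, range to 0.18), for Il11ra1 in WT with the mean of its probes (-0.063), without the second titled DSS array (-0.097) and without the second titled UT array (-0.253, range to 0.336), and for Osm between ATF6aKO and WT with normexp (0.10). By construction the treatment fields turn the WT differences: Il6 -3.25, Il11 -1.92, Il11ra1 -0.041, Il6ra -0.74, Il6st -0.55, Osm 0.21, Osmr -1.03, Socs3 -1.12 and Stat3 -1.57. The causes of the other changes were not tested.

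Whether the replicate numbers pair the samples is not known. Differences between first and second replicates correlated between groups at -0.22 to 0.15 over all genes, a measure that cannot exclude pairing. With the number as a block, 6 of the 9 genes passed across both knockouts, the call of Il11ra1 (adjusted p = 0.0568) being lost; no other call among the 9 genes changed under the block. Over all genes, the number passing across both knockouts ran from 3857 (without the first ATF6aKO DSS array) to 8327 (normexp), and 6761 passed as reported, 3080 higher and 3681 lower; normexp gave 4902 higher and 3425 lower and moved the median of all genes to 0.11. In ATF6aKO 1472 passed as reported, against 183 to 3464 with 1 array left out, 693 without a filter, 563 with only the arrays compared and 2915 without the WT arrays; in ATF6bKO 3000 passed as reported, against 1089 to 5280, 2040, 1812 and 4625 under the same changes and 1797 with normexp (978 higher and 819 lower, where 1325 and 1675 were reported). Between the WT groups by titles 7380 passed, against 2983 to 10479 with 1 array left out. For responses against WT by titles, 1780 passed in ATF6aKO, against 0 to 7625 with 1 array left out, 265 without a filter, 158 with only the arrays compared, 2849 with a strict filter, 2676 with normexp and 6488 with the treatment fields; in ATF6bKO 3404 passed, against 740 to 8972, 1486, 891 and, with the treatment fields, 6811. Between ATF6bKO and WT 6805 passed, against 12368 with normexp, 11147 in the value table and 11748 with all 12 arrays; between ATF6aKO and WT 8196, against 12522 in the value table. In the value table the median of all genes shifted to 0.58 for ATF6aKO and 0.61 for ATF6bKO against WT, with 10993 higher and 1529 lower in ATF6aKO and 10149 higher and 998 lower in ATF6bKO, where 3406 and 4790, and 3193 and 3612, were found as reported. Only the WT columns of the value table have missing values. Between the responses of the knockouts 0 genes passed, 5 with quantile normalization, 1 in the value table, 4 with only the arrays compared and 83 without the first ATF6bKO DSS array. Il6 in untreated ATF6bKO and Osm in both untreated knockouts were not well above background, so the sizes of those differences rest on dim signals.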

Other observations

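The genes most like each of 4 genes were ranked by Pearson correlation of levels over the 12 arrays, among 14594 genes with a symbol; the arrays share slides and groups, so these values describe the arrays. Il6 was most like Clec4e (0.98), a lectin receptor of myeloid cells, then Il11 and Ackr2 (both 0.97), Il1b and Cxcl10 (both 0.96). Il11 was most like Il1b and Clec4e (both 0.98), Il6 and Cxcl1 (both 0.97) and Timp1 (0.96). Il1b is an inflammatory cytokine, Cxcl1 a neutrophil chemokine and Cxcl10 an interferon-induced chemokine. Socs3 was most like Gda (0.96), Timp1, Ccdc93, Mmp25 and Antxr1 (each 0.95). Osm, dim on most knockout arrays, was most like Gjc3 (0.95), Olfr1112 (0.93), Fgf23, Tlr3 and Foxi2 (each 0.91 or 0.90).

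Among the lists, Stat4 and Batf had larger responses in both knockouts than in WT by titles, 2.04 and 1.78 in ATF6aKO (limma adjusted p 0.0329 and 0.0373) and 2.99 and 2.74 in ATF6bKO (adjusted p 0.00965 and 0.00976). Socs1 had a larger response in ATF6bKO than in WT by titles (1.99, adjusted p = 0.0148). Bcl3, a STAT3 target, had a smaller response in ATF6aKO (-1.25, adjusted p = 0.0335) and in ATF6bKO (-1.64, adjusted p = 0.0116) than in WT by titles. Of the 11 JAK, STAT and shedding genes, 1 had a larger and 1 a smaller response in each knockout. Of the 17 negative regulators, 1 was larger in ATF6aKO, and 2 were larger and 1 smaller in ATF6bKO. Of the 28 STAT3 targets, 2 were larger and 1 smaller in ATF6aKO, and 4 larger and 2 smaller in ATF6bKO. Of all genes, 7.66% passed in ATF6aKO and 14.6% in ATF6bKO. All of these would change with the reading of the WT labels.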
